A study of Homo sapiens with 12 samples.

Results

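EWSR1, TAF15, FLI1 and ENSG00000215835, a processed pseudogene of EWSR1, were taken by gene name from the count files, as 4 of 60645 gene names. EWSR1 and TAF15 belong to the FET family of RNA-binding proteins. FLI1 was included because it is the other gene in the EWS-FLI1 fusion, and the pseudogene because of its resemblance to EWSR1. EWSR1, FLI1 and the pseudogene were chosen by their higher counts after EWS-FLI1 transfection, so that difference is described below without a test.

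PolyA RNA was sequenced from ARID1A-knockout cells of HEK-293T, a line from human embryonic kidney. The ARID1A protein belongs to the BAF form of SWI/SNF, a complex that moves nucleosomes, and binds DNA. The study asked what IDR1b, a segment of ARID1A, does in gene regulation by EWS-FLI1. All 6 groups carried the ARID1A knockout, and each had 2 libraries. The cells received an empty vector ("no ARID1A"), wild-type ARID1A (WT) or ARID1A without IDR1b (ΔIDR1b), and in addition either an empty vector or 2 µg of a pcDNA plasmid encoding EWS-FLI1 for 48 h. The fusion was thus made from a plasmid in kidney cells, which do not carry it themselves, and the labels do not say whether the knockout line was 1 clone. They do not say either that the libraries of a group came from separate cultures, so the p-values measure only the spread between these libraries, which may be technical.

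FET proteins join a low-complexity N-terminal domain, rich in tyrosine, glutamine, serine and glycine, to domains that bind RNA. They are abundant nuclear proteins that associate with RNA polymerase II and with splicing factors. FLI1 is a transcription factor of the ETS family with a role in blood and blood vessel cells. In Ewing sarcoma a translocation joins the N-terminal part of EWSR1 to the DNA-binding part of FLI1, and the fusion acts as an aberrant transcription factor. In a table of counts per gene the fusion has no entry of its own, and its fragments are counted in EWSR1 and in FLI1.

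In the annotation of the files (GRCh38), EWSR1 spans chr22:29268009-29300525 on the forward strand, FLI1 chr11:128686535-128813267 (forward), TAF15 chr17:35809482-35864615 (forward) and ENSG00000215835 chr1:166275629-166277597 (reverse). Exons of other genes cover 1.2% of the exonic bases of EWSR1 (RHBDD3), 4.1% of those of FLI1 (ENSG00000245008 and SENCR) and 2.6% of those of TAF15 (ENSG00000270894 and HEATR9). No exon of another gene overlaps the pseudogene. A processed pseudogene is a copy of a spliced mRNA that was inserted elsewhere in the genome. ENSG00000215835 aligned along the whole coding sequence of an EWSR1 transcript of 17 exons, with 1896 of 1969 aligned bases identical (96.3%) and 2 further bases only in EWSR1, and it crossed all 16 exon junctions without a gap. Its longest stretch identical to EWSR1 was 165 bases, and 2 identical stretches reached 100 bases. Over EWSR1 exons 1 to 11 the identity was 97.6% (28 differing bases of 1164), and over exons 12 to 17 it was 94.4% (45 of 805).

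The stretches below show how close the copy is to the gene, at an exon junction with 1 differing base and at one with 6. Each runs 5′ to 3′ for 100 bases on the transcribed strand, 50 on either side of the junction, and capitals mark the bases that differ. The sequences are those of the GENCODE transcripts. The EWSR1 stretches join chr22:29273815-29273864 (exon 4) to chr22:29278030-29278079 (exon 5), and chr22:29296319-29296368 (exon 12) to chr22:29297827-29297876 (exon 13). The pseudogene stretches lie unspliced at chr1:166277322-166277421 and chr1:166276254-166276353 on the reverse strand.
EWSR1, exons 4 and 5: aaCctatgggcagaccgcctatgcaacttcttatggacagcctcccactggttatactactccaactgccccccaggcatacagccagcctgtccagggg
ENSG00000215835, the same stretch: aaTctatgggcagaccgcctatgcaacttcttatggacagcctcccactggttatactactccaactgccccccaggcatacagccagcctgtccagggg
EWSR1, exons 12 and 13: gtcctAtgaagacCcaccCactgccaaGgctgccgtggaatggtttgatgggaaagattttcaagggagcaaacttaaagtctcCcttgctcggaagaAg
ENSG00000215835, the same stretch: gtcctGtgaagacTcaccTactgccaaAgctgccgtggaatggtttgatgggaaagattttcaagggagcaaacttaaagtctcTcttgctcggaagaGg

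The libraries held 11702251 to 14445379 counts. Levels are given as CPM, counts per 1000000 counts of a library size scaled with TMM, the trimmed mean method of edgeR. ARID1A stood at 147.4 to 164.5 CPM in the libraries without added ARID1A and at 1843 to 2878 CPM in those with it, and the ΔIDR1b libraries (2608 to 2878) lay above the WT libraries (1843 to 2291). Of 8 genes fixed as markers of HEK-293T, 7 had a mean of at least 1 CPM, the exception being NEFM with at most 1 count. Their summed level was 926 to 1220 CPM with the empty vector and 858 to 1150 CPM with EWS-FLI1. Of 10 markers of blood and endothelial cells, where FLI1 is normally expressed, 1 (CD34) had a mean of at least 1 CPM. The largest count in any library ran from 2 for PTPRC to 52 for CD34, with 3 for PECAM1, 22 for GATA1 and 26 for KDR. The summed level of the 10 was 3.72 to 6.28 CPM with the empty vector and 3.2 to 6.88 CPM with EWS-FLI1.

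Endogenous FLI1 was at the limit of detection, and almost all FLI1 counts came with the plasmid. With the empty vector FLI1 had 0 counts in both libraries without ARID1A, 1 and 0 in WT, and 2 and 1 in ΔIDR1b. A count of 0 allows up to 3 counts, 0.223 and 0.2244 CPM in the libraries without ARID1A, for counting error only. With EWS-FLI1 it had 21468 and 19540 counts without ARID1A, 48823 and 45668 in WT, and 26667 and 27423 in ΔIDR1b. No library with the plasmid was near the range of those without it, and both WT libraries were above all the others.

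FLI1 was about 2 times as high in WT as in either of the other states after EWS-FLI1. The mean was 1759 ± 100 CPM without ARID1A (SD, n = 2), 3568 ± 151 in WT and 1897 ± 13.2 in ΔIDR1b. The difference of WT from no ARID1A was 1.02 on the log2 scale (SE 0.09, edgeR quasi-likelihood test, adjusted p = 7.88e-10). ΔIDR1b was lower than WT by 0.91 (log2 change -0.91, edgeR adjusted p = 1.08e-08). ΔIDR1b and no ARID1A differed by 0.11, with a 95% interval from -0.07 to 0.29 (edgeR adjusted p = 0.367), although their libraries did not overlap. The labels give the same plasmid amount for all states. Fewer cells with the fusion and less fusion RNA per cell cannot be told apart in these bulk libraries.

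EWSR1, which the cells express themselves, was in every library. With the empty vector it stood at 527.9 and 531.2 CPM without ARID1A, 495.3 and 558.7 in WT, and 391.7 and 386.3 in ΔIDR1b. Both ΔIDR1b libraries were below all 4 others. With EWS-FLI1 it stood at 2110 and 1976 CPM without ARID1A, 3728 and 3462 in WT, and 2044 and 2073 in ΔIDR1b. All 6 libraries with the plasmid were above all 6 without it, and the group means were 3.86 times (no ARID1A), 6.82 times (WT) and 5.29 times (ΔIDR1b) those with the empty vector.

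**Figure D1:**
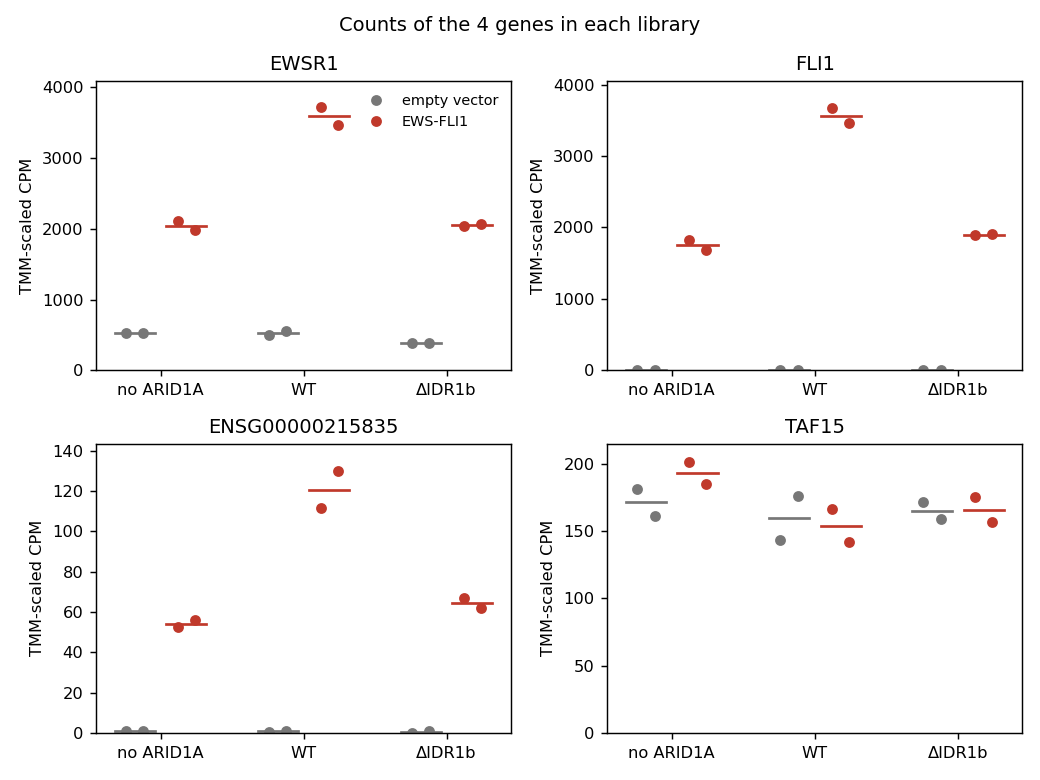
Level of each of the 4 genes (vertical axis, TMM-scaled CPM) in each of the 12 libraries (points), by ARID1A state (horizontal axis) and vector (grey, empty vector; red, EWS-FLI1), with horizontal lines at group means. FLI1 is near 0 with the empty vector and at 1759 to 3568 CPM in group means with EWS-FLI1, where EWSR1, FLI1 and ENSG00000215835 are highest in WT.

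With the empty vector, where the count is that of the endogenous gene, EWSR1 was lower in ΔIDR1b. Against no ARID1A it fell by 0.44 on the log2 scale (SE 0.09, edgeR adjusted p = 1.56e-04), a ratio of group means of 0.735. In that comparison 33.3% of all tested genes were called in either direction, 16.4% higher and 16.8% lower. Against WT it also fell by 0.44 (SE 0.09, edgeR adjusted p = 3.55e-04), where 24.5% of all tested genes were called. WT and no ARID1A differed by -0.01 (95% interval -0.18 to 0.17, edgeR adjusted p = 0.97), where 11.7% were called. ΔIDR1b was thus in a state in which many genes differed, and its ARID1A level was above that of WT, and their part in the EWSR1 difference was not tested.

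With EWS-FLI1 the order was another one, with EWSR1 highest in WT. EWSR1 in WT was above no ARID1A by 0.82 on the log2 scale (SE 0.09, edgeR adjusted p = 2.80e-08). In that comparison 18.1% of all tested genes were called in either direction and 9.72% were called higher. ΔIDR1b was below WT (log2 change -0.80, edgeR adjusted p = 4.65e-08), where 18.6% were called. ΔIDR1b and no ARID1A differed by 0.01 (95% interval -0.16 to 0.19, edgeR adjusted p = 0.938), where 35.9% were called, 18.1% higher and 17.9% lower. The counts of EWSR1 and FLI1 both include the fusion, and the pseudogene is nearly identical to EWSR1, so their changes in these libraries are not 3 separate results.

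**Figure D2:**
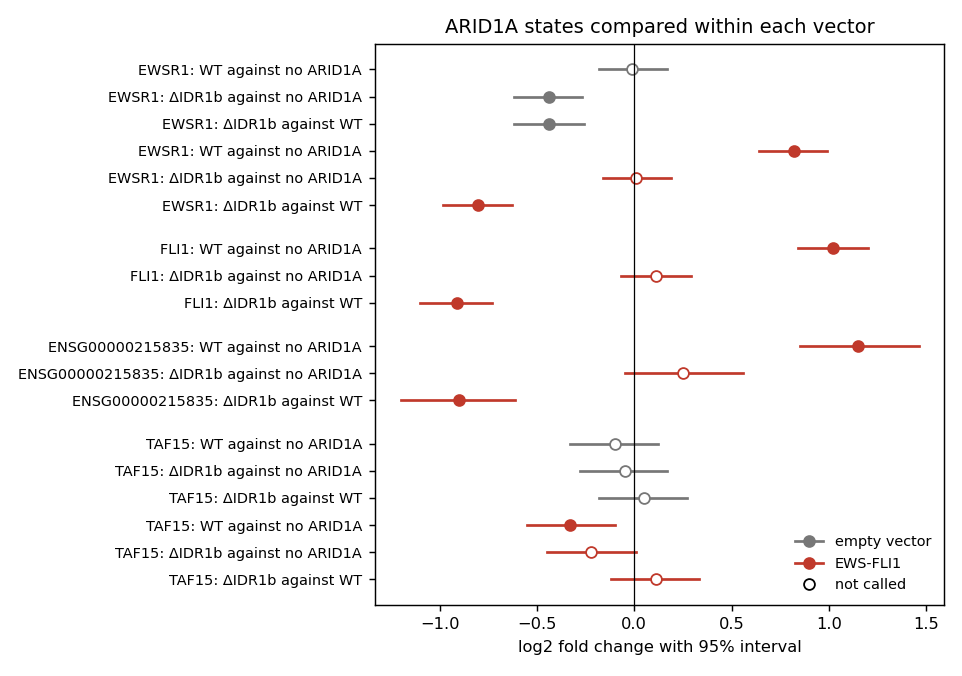
Log2 fold change (horizontal axis) between ARID1A states for each gene, within the empty-vector libraries (grey) and within the EWS-FLI1 libraries (red), with 95% intervals as bars and open circles where the adjusted p was not under 0.05. EWSR1 is lower in ΔIDR1b with the empty vector (log2 change -0.44 against both states), and with EWS-FLI1 the WT libraries stand apart for EWSR1, FLI1 and ENSG00000215835.

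The part of the EWSR1 count above its empty-vector level followed FLI1 closely. Subtracting the mean of the empty-vector libraries of the same state left an EWSR1 rise of 1513 CPM without ARID1A, 3068 in WT and 1669 in ΔIDR1b. The rise made up 74.1%, 85.3% and 81.1% of the EWSR1 level in these groups. Between WT and no ARID1A the rise and FLI1 had the same ratio of means, 2.03. Between ΔIDR1b and WT the ratios were 0.544 for the rise and 0.532 for FLI1, and between ΔIDR1b and no ARID1A they were 1.1 and 1.08.

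Per library, the rise of EWSR1 divided by FLI1 was 0.8634 and 0.8569 without ARID1A, 0.8711 and 0.8479 in WT, and 0.8767 and 0.8833 in ΔIDR1b. The mean over the 6 libraries was 0.867 ± 0.0131 (SD), so the ratio varied far less than FLI1 itself, which ran from 1688 to 3675 CPM. Both ΔIDR1b libraries were above the other 4. That order rests on the subtracted level: with the mean of all 6 empty-vector libraries subtracted instead, the ratio was 0.8311 in ΔIDR1b and 0.8873 without ARID1A. The ratio assumes that endogenous EWSR1 stayed at its empty-vector level, and a change of it cannot be told apart from fusion counts in these files. A fragment overlapping exons of 2 genes was not counted, so any such fragment across the fusion junction is in neither value.

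**Figure D3:**
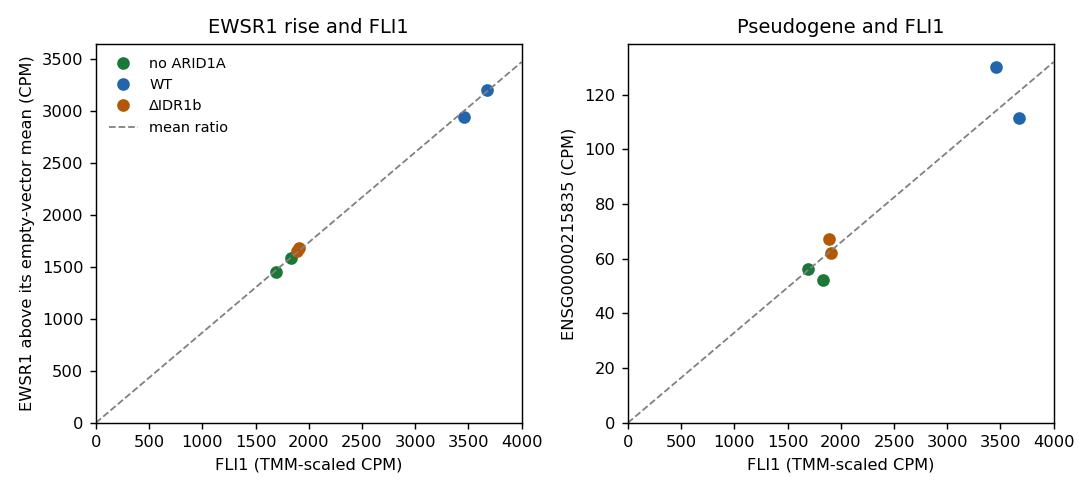
In the 6 libraries with EWS-FLI1 (points, coloured by ARID1A state), the EWSR1 level above its empty-vector mean (left, vertical axis, CPM) and ENSG00000215835 (right, vertical axis, CPM) against FLI1 (horizontal axes, TMM-scaled CPM), with a dashed line at the mean ratio. The EWSR1 rise lies along the line at 0.867, and ENSG00000215835 scatters around 3.30% of FLI1.

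ENSG00000215835 moved with the plasmid as well. With the empty vector it had 11 and 12 counts without ARID1A, 8 and 14 in WT, and 2 and 15 in ΔIDR1b. With EWS-FLI1 it had 614 and 650 counts without ARID1A, 1480 and 1717 in WT, and 949 and 892 in ΔIDR1b. All 6 libraries with the plasmid were above all those without it. The group means were 54.25 ± 2.71, 120.8 ± 13.3 and 64.59 ± 3.66 CPM (SD, n = 2), which are 63.3, 147 and 106 times the empty-vector means of 0.8576, 0.8205 and 0.6093 CPM.

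Among the libraries with EWS-FLI1, the pseudogene was higher in WT than without ARID1A by 1.15 on the log2 scale (SE 0.15, edgeR adjusted p = 8.23e-07). ΔIDR1b was below WT (log2 change -0.90, edgeR adjusted p = 4.42e-05). ΔIDR1b and no ARID1A differed by 0.25 (95% interval -0.05 to 0.56, edgeR adjusted p = 0.197). The pattern over the 3 states was thus that of FLI1, with a wider error.

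Its count was 0.0373 to 0.2776% of the EWSR1 count in the libraries with the empty vector and 2.481 to 3.7591% in those with EWS-FLI1. Relative to FLI1 it stood at 2.8601% and 3.3265% without ARID1A, 3.0314% and 3.7597% in WT, and 3.5587% and 3.2527% in ΔIDR1b. The groups overlapped in this share, whose mean over the 6 libraries was 3.30%. Its rise over the empty-vector mean was 3.26 to 4.41% of that of EWSR1. The copy and the gene share long identical stretches, and pairs with several mapping places were left out of the authors' counts. Fragments from such stretches can thus be missing from both values. Whether fragments of the fusion were counted in the pseudogene was not tested, so both values are uncertain. In the same files a shorter EWSR1 copy, ENSG00000257307 (chr14:35881001-35881709), chosen after its values were seen, aligned to EWSR1 exons 1 to 7 with 677 of 708 aligned bases identical (95.6%) and 33 bases found only in EWSR1. It had 0 to 1 counts with the empty vector, and 1 and 2, 3 and 3, and 9 and 5 counts with EWS-FLI1 in no ARID1A, WT and ΔIDR1b.

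TAF15, the FET member outside the fusion, showed no call between EWS-FLI1 and the empty vector. With the empty vector it stood at 181.6 and 161.5 CPM without ARID1A, 143.4 and 176.5 in WT, and 171.6 and 158.8 in ΔIDR1b. With EWS-FLI1 it stood at 201.9 and 185.2, 166.4 and 142.2, and 175.2 and 157.2 CPM. The libraries of the 2 vectors overlapped in WT and in ΔIDR1b, and without ARID1A both libraries with EWS-FLI1 were above both with the empty vector. The change with EWS-FLI1 was 0.17 on the log2 scale without ARID1A (95% interval -0.05 to 0.40), -0.05 in WT (-0.28 to 0.17) and 0.01 in ΔIDR1b (-0.22 to 0.23). Averaged over the states it was 0.04 (-0.09 to 0.17, edgeR adjusted p = 0.928). Of all tested genes, 0.466% were called in the average comparison, and 0.0442%, 0.221% and 0.172% in no ARID1A, WT and ΔIDR1b.

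Between the ARID1A states TAF15 differed by at most 0.10 on the log2 scale with the empty vector, with no call (edgeR adjusted p from 0.615 to 0.807). With EWS-FLI1 it was lower in WT than without ARID1A (log2 change -0.33, SE 0.11, edgeR adjusted p = 0.0376). In that comparison 18.1% of all tested genes were called. The libraries did not overlap, which with only 2 in each group adds little. The call held in 12 of 20 alternatives (edgeR or DESeq2 adjusted p from 0.00358 to 0.28). It was lost without either no-ARID1A library with EWS-FLI1 (adjusted p = 0.28 and 0.0851), without WT replicate 2 with EWS-FLI1 (0.198), and when only the compared libraries were fitted (0.106). Without either empty-vector library of no ARID1A it was 0.0502 and 0.0501, and without either of ΔIDR1b 0.0507 and 0.0508. ΔIDR1b against no ARID1A gave -0.22 with EWS-FLI1 (95% interval -0.45 to 0.01, edgeR adjusted p = 0.123). This difference was called with a replicate block within each vector (-0.22, edgeR adjusted p = 0.0428) and with only the compared libraries (-0.24, 0.0275), and in none of the other 18 alternatives. ΔIDR1b against WT gave 0.11 (edgeR adjusted p = 0.546). The change with EWS-FLI1 itself was not called different between WT and no ARID1A (interaction -0.23, 95% interval -0.55 to 0.09, edgeR adjusted p = 1), an interaction tested after the values were seen, in which 0.0245% of all tested genes were called.

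Per kilobase of exon, TAF15 was lower than EWSR1 in all 6 groups. With the empty vector and no ARID1A its level was 12.61 CPM per kilobase, against 51.28 for EWSR1. After EWS-FLI1 in WT, FLI1 stood at 444.6 CPM per kilobase, EWSR1 at 348.2, ENSG00000215835 at 61.34 and TAF15 at 11.34. The lengths are those of all annotated exons of a gene, and the fusion holds only part of those of EWSR1 and FLI1.

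Nuclear proteins that bind, modify or import FET proteins were then examined as a list of 18 genes, all tested. With EWS-FLI1 against the empty vector, edgeR called 0 of them in each state and in the average (1 at an unadjusted p under 0.05 in WT and 0 in the others, and 0 called by DESeq2). In these comparisons 0.0442 to 0.466% of all tested genes were called, so a count of 0 sets the list apart in no way. In ΔIDR1b against no ARID1A with the empty vector 8 were called, 1 higher and 7 lower, beside 33.3% of all tested genes, and the median log2 change of the 18 was -0.13 beside 0 for all tested genes. That count moved when single libraries were left out, and so did the number called over all tested genes. With EWS-FLI1, 9 were called, 2 higher and 7 lower, beside 35.9% of all tested genes, with a median of 0.02, the median of all genes. It became 5 without no-ARID1A replicate 1. HNRNPH1, a splicing regulator, had log2 changes of -1.43 and -1.47 (edgeR adjusted p = 8.49e-13 and 3.71e-13), from 1380 to 513 CPM with the empty vector. RBM14, a paraspeckle protein, had -0.91 and -0.84, HNRNPU -0.68 and -0.62. The RNA helicases DHX9 (-0.47 with the empty vector) and DDX17 (-0.51 with EWS-FLI1) were also among the 4 largest. In ΔIDR1b against WT, 9 (1 higher) were called with the empty vector, beside 24.5% of all tested genes, and 7 (2 higher) with EWS-FLI1, beside 18.6%. The 7 became 2 with only the compared libraries and 11 with a replicate block within each vector. Leaving out single libraries moved this count as well. In WT against no ARID1A, 3 (2 higher) and 7 (3 higher) were called, beside 11.7% and 18.1% of all tested genes. Among them were HNRNPH1 at -0.33 and -0.64, ILF2 at 0.34 and 0.35, and, with EWS-FLI1, HNRNPU at -0.39. TNPO1, the transportin that imports FET proteins, was at 0.38 and 0.48. HNRNPH1 was thus called lower with WT as well as with ΔIDR1b. With the empty vector, HNRNPH1 and ILF2 were each called in 17 of 20 alternatives. The empty-vector call of TNPO1 was lost without any 1 of the 4 libraries compared (adjusted p from 0.0656 to 0.121). The 7 with EWS-FLI1 became 2 and 3 without no-ARID1A replicate 1 and 2, and 4 with only the compared libraries. The count of 3 became 5 with upper-quartile scaling or with only the compared libraries. It became 6 with DESeq2 or a replicate block within each vector. Leaving out single libraries moved it in both directions, and the number called over all tested genes moved as well.

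TAF15 takes its name from TFIID, the complex that recognises core promoters, with which it can associate. Of 14 TFIID genes, all tested, edgeR called 0 for EWS-FLI1 in each state and in the average (2 at an unadjusted p under 0.05 in ΔIDR1b and 0 in the others, and 0 called by DESeq2). The share of all tested genes called there was 0.0442 to 0.466%, so the 0 does not set the TFIID genes apart. In ΔIDR1b against no ARID1A, 7 were called with the empty vector (4 higher, 3 lower) and 9 with EWS-FLI1 (5 higher, 4 lower), beside 33.3% and 35.9% of all tested genes. The empty-vector count moved when single libraries were left out, and so did the number called over all tested genes. The medians of all 14 were -0.10 and -0.05, against the larger number of higher calls. TAF10 had log2 changes of -1.33 and -1.63 (edgeR adjusted p = 1.2e-07 and 3.87e-09), TAF9 -0.94 and -0.97, TAF11 -0.48 and -0.53, and TAF7 0.84 and 0.64. The call of TAF11 with the empty vector was lost without ΔIDR1b empty-vector replicate 1 (adjusted p = 0.0634). In ΔIDR1b against WT 7 were called with the empty vector, beside 24.5% of all tested genes, and 4 with EWS-FLI1, beside 18.6%. The 7 became 2 to 4 without any 1 of the 4 libraries compared, and the 4 became 2 without ΔIDR1b replicate 1 or with only the compared libraries. In WT against no ARID1A 2 and 3 were called, beside 11.7% and 18.1%. They were TAF10 (-0.75 and -0.53), TAF7 (0.49 and 0.39) and, with EWS-FLI1 only, TAF9 (-0.42), in the same directions as in ΔIDR1b. The 2 became 0 without no-ARID1A replicate 2 and 1 without WT replicate 1, and the 3 became 0 and 1 without no-ARID1A replicate 1 and 2 and 0 with only the compared libraries.

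Genes besides FLI1 that are joined to FET genes in sarcomas and leukaemias formed a list of 14, of which 13 were tested and ERG, with at most 4 counts, was not. edgeR called 0 of the 13 for EWS-FLI1 in each state and in the average (1 at an unadjusted p under 0.05 in each state and 0 in the average, and 0 called by DESeq2). These comparisons called 0.0442 to 0.466% of all tested genes, so the 0 does not set this list apart either. In ΔIDR1b against no ARID1A 8 were called with either vector, 5 higher and 3 lower, beside 33.3% and 35.9% of all tested genes. The medians of the 13 were 0.29 and 0.39, beside 0 and 0.02 for all tested genes. Both counts moved when single libraries were left out, and so did the number called over all tested genes. DDIT3, a stress-induced transcription factor, had log2 changes of -0.97 and -1.53, NR4A3, an orphan nuclear receptor, -1.29 and -0.99, and WT1, a zinc finger factor, 1.00 and 0.87. The ETS gene ETV4 had 0.94 with EWS-FLI1. The ETS gene ETV1, at most 3.96 CPM in any library, had 1.56 and 2.61, and NFATC2, at most 3.07 CPM, had 1.78 with the empty vector. The empty-vector call of ETV1 was lost without either no-ARID1A library (adjusted p = 0.064 and 0.202), without ΔIDR1b replicate 1 (0.266) and with only the compared libraries (0.0516), and that of NFATC2 without no-ARID1A replicate 1 (0.104) or ΔIDR1b replicate 2 (0.174). In ΔIDR1b against WT 4 were called with either vector, beside 24.5% and 18.6% of all tested genes. The empty-vector 4 became 2 without either WT library, without ΔIDR1b replicate 1 or with no low-count filter. The 4 with EWS-FLI1 became 1 without either ΔIDR1b library or with only the compared libraries, and 2 without WT replicate 1 or with no low-count filter. In WT against no ARID1A 1 and 3 were called, beside 11.7% and 18.1%. They were ETV1 (1.95 and 1.96) and, with EWS-FLI1 only, DDIT3 (-0.75) and ETV4 (0.67). The 1 became 2 with some other scalings, DESeq2, only the compared libraries or a replicate block within each vector. Both counts moved when single libraries were left out.

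The chromosomal neighbours of the 4 genes were examined next. Within 100 kb lay 10 genes for EWSR1 (6 tested), 6 for FLI1 (1 tested), 17 for TAF15 (8 tested) and 0 for the pseudogene. edgeR called 0 of them for EWS-FLI1 in each state and in the average (at most 1 per gene neighbourhood and comparison at an unadjusted p under 0.05, and 0 by DESeq2). Since 0.0442 to 0.466% of all tested genes were called in these comparisons, a count of 0 sets the neighbours apart in no way. ENSG00000245008 and SENCR, which overlap FLI1, had 0 counts in all 12 libraries, and KCNJ1 had 0 to 6. CCL5, a chemokine gene near TAF15, was higher with added ARID1A, by 1.69 (WT) and 1.38 (ΔIDR1b) on the log2 scale with the empty vector and by 1.53 and 1.55 with EWS-FLI1 (edgeR adjusted p from 2.16e-11 to 3.01e-10). Beside EWSR1, GAS2L1 had 0.79 and RASL10A 0.77 in ΔIDR1b against no ARID1A with the empty vector, where EWSR1 was lower. The call of GAS2L1 was lost without ΔIDR1b replicate 1 (adjusted p = 0.0871), and that of RASL10A without no-ARID1A replicate 1 (0.136) or ΔIDR1b replicate 2 (0.0862). RHBDD3, whose exons overlap those of EWSR1, had 0.61 in that comparison with EWS-FLI1. AP1B1 beside EWSR1, KCNJ5-AS1 beside FLI1, and RASL10B, ENSG00000270894 and ENSG00000270977 beside TAF15 were called in 1 to 3 comparisons of states, and each of these calls was lost without at least 1 library.

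Across the 12 libraries and 16690 genes, the genes whose log2 CPM followed a member most closely were found by Pearson's r, given as a description. The libraries with and without the plasmid form 2 separate clusters for EWSR1, FLI1 and the pseudogene, so r spans the gap between them. SGK1, a kinase induced by serum and glucocorticoids, was closest to EWSR1 (r = 0.968) and to the pseudogene (0.929), and KDM7A-DT was closest to FLI1 (0.922). SGK1 stood at 4.29 to 10.3 CPM with the empty vector and at 15.1 to 29.4 CPM with EWS-FLI1. IER2, an immediate early gene, followed EWSR1 (0.923) and the pseudogene (0.898), and LINC00659 followed EWSR1 (0.893) and FLI1 (0.907). Closest to TAF15 were ENSG00000227627 (0.945), the chromatin remodeller ATRX (0.936) and ENSG00000289586 (0.89). The level of ENSG00000227627 was low, at 1.12 to 4.09 CPM, and its WT libraries with the empty vector were at 1.12 and 2.54 CPM. ATRX was highest, like TAF15, without ARID1A and with EWS-FLI1, at 135 and 126 CPM, beside 81.5 to 121 CPM in the other 10 libraries.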

How the data were processed

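Per the file headers, the authors ran featureCounts 2.0.1 with the GENCODE release 41 annotation of GRCh38 (patch 13), requiring both ends of a pair to align and setting no strand option. Pairs with several mapping places, or over exons of more than 1 gene, were left out, so each deposited value is a whole-number count, not normalized. Reads from a gene and an antisense partner cannot be told apart. STAR, SAMtools and edgeR are named in the submitters' processing notes, without versions. Where the fusion joins EWSR1 and FLI1 and what else the plasmid holds are not given in the sources used here.

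Genes were kept with edgeR's filterByExpr (minimum count 10, minimum total 15), which left 20377 of 60645 names. All 4 genes passed, FLI1 and ENSG00000215835 only through the EWS-FLI1 groups. Sizes were scaled by TMM. The model, fitted in edgeR 4.0.16 (limma 3.58.1, R 4.3.3), held 1 mean for each group and used all 12 libraries. Quasi-likelihood tests were 2-sided, adjusted by Benjamini-Hochberg over all tested genes within a comparison and called under 0.05. The biological variation was 10.1%. Intervals use the t distribution with the degrees of freedom of the fit. The procedure was tested on simulated data. The pseudogene was aligned to the EWSR1 transcript of GENCODE release 29.

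The members and lists were chosen with earlier results of these data known. In the comparisons with no ARID1A, list genes were named as up to 4 per comparison, by size among the called. Some of them are given with both vectors. For ΔIDR1b against WT only the number called is given. Like genes were the 3 with the highest r on log2 CPM (prior count 2) among genes of at least 1 CPM on average. Markers of HEK-293T gave 2 and 3 calls of 7 tested in ΔIDR1b against no ARID1A, and those of blood and endothelial cells 0 and 1 of 3, beside 33.3% and 35.9% of all tested genes. For EWS-FLI1 against the empty vector, averaged over the states, 1 of the 7 was called, lower, beside 0.466% of all tested genes. DESeq2 also called 1 there. In each single state 0 of the 7 were called. Alternatives were other scalings, no low-count filter, DESeq2 1.42.0, only the compared libraries, replicate blocks and leaving out each library.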

Additional observations from a re-analysis of the deposited data

How the results depend on the processing

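The calls of EWSR1, FLI1 and ENSG00000215835, and the directions of the called changes, were the same under all 20 alternatives, with log2 changes from 0.96 to 1.08 for FLI1 in WT against no ARID1A, from 0.76 to 0.87 for EWSR1 in the same comparison and from -0.46 to -0.43 for EWSR1 in ΔIDR1b against no ARID1A with the empty vector. TAF15 in WT against no ARID1A with EWS-FLI1 ran from -0.44 to -0.22 with 1 library left out, and was -0.32 with only the compared libraries. TAF15 in ΔIDR1b against no ARID1A with EWS-FLI1 became called at -0.24 with only the compared libraries (adjusted p = 0.0275). With all 6 empty-vector libraries as the baseline, the EWSR1 rise over FLI1 moved to 0.8873 without ARID1A and 0.8311 in ΔIDR1b. Only the subtracted EWSR1 level differed, a common mean in place of 529.6 CPM without ARID1A and 389 CPM in ΔIDR1b.

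Equal replicate numbers did not pair the libraries by the labels. Differences between replicates 1 and 2, over 11384 genes, correlated between groups of the same vector with r from 0.089 to 0.381, and between groups of different vectors with r from -0.205 to -0.005. With a replicate block within each vector, TAF15 in ΔIDR1b against no ARID1A with EWS-FLI1 was called at -0.22 (adjusted p = 0.0428), and no other call of the 4 genes changed. The block raised the number of called genes for EWS-FLI1 from 95 to 532 on average, from 35 to 177 in ΔIDR1b, from 9 to 15 without ARID1A and from 45 to 260 in WT, and in WT against no ARID1A with the empty vector from 2381 to 3606. With only the compared libraries these numbers were 56, 16 and 26 for EWS-FLI1 in ΔIDR1b, no ARID1A and WT, and with EWS-FLI1 2202 (from 3684) for WT against no ARID1A and 1622 (from 3785) for ΔIDR1b against WT. That fit gives no value for the average. Without WT replicate 1 or 2 with EWS-FLI1 the average gave 160 and 316 calls, and WT 230 and 128. With 1 library left out, WT against no ARID1A with the empty vector fell to as few as 802. A list's count moved with the library left out, and so did the number called over all tested genes in the same comparison. The shares given beside the lists are those of the full fit. Groups of 2 libraries and levels of a few counts, as for FLI1 with the empty vector, limit the precision.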
